A study of Mus musculus with 11 samples.

Results

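The averaged genotype contrast asked which heart genes differ between CD mice, a model of Williams–Beuren syndrome (WBS), and WT mice whatever treatment the animals received. It was the mean of the CD VEH and CD JZL184 groups minus the mean of the WT VEH and WT JZL184 groups, taken from bulk RNA-seq of heart samples labelled as ventricle, and all 11 mice of the series entered it: 3 CD VEH, 3 CD JZL184, 2 WT VEH and 3 WT JZL184. CD mice carry a heterozygous complete deletion of the mouse region from Gtf2i to Fkbp6, so that 1 copy of each gene of that interval is left in every cell, while WT mice were littermates on the same C57BL/6J background, to which the line had been backcrossed for 9 generations. All mice were males aged 8 to 16 weeks. JZL184 mice received 8 mg/kg intraperitoneally for 10 days and VEH mice received the vehicle, although the treatment label of the latter reads untreated. Genes inside the interval were counted apart, which left 11305 of the 11319 genes tested. Mouse letters below are those of the table's columns. The same letters recur across groups, and the labels do not say what they stand for.

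The deleted interval matches the segment of human chromosome band 7q11.23 that is lost in WBS. It holds Eln, which encodes the elastin of arterial walls, and genes of several transcription and chromatin regulators, among them Gtf2i, Gtf2ird1, Mlxipl and Baz1b. Loss of 1 copy of a gene usually lowers its own mRNA, and genes elsewhere in the genome can follow. JZL184 irreversibly inhibits monoacylglycerol lipase, the enzyme encoded by Mgll that breaks down the endocannabinoid 2-arachidonoylglycerol. In a hypertrophic rodent ventricle, genes of the fetal heart such as Acta1, Nppa, Nppb and Myh7 typically rise, and they are read as a marker of that state.

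The libraries held 69660232 to 92251443 counts. Values are given as counts scaled to library size (CPM) after scaling between libraries, and 3 counts were worth 0.0306 to 0.0435 CPM. The summed CPM of 6 cardiomyocyte markers lay between 22923 and 38193, and the atrial light chain Myl7 had at most 38 counts in any mouse. Of the 11 skeletal muscle markers, the fast myosins Myh1, Myh2 and Myh4 had at most 7, 6 and 1 counts in any mouse, while Tnni2 had 62 to 131, Mylpf 41 to 87 and Atp2a1 18 to 53. Summed erythroid markers spread from 1419 to 18841 CPM among CD mice and from 2035 to 5513 CPM among WT mice. None of the 12 lymphocyte markers passed the filter on low counts. Genes known from the mesothelium that covers the heart, looked up after their counts were seen, were low in the 3 mice with the letter A. Of these mice 2 are CD and 1 is WT. Upk3b had 0 counts in these and 8 to 95 in the other 8 mice, and Msln had 1 count in each and 3 to 48 in the others. Upk1b and Muc16 had 0 counts in the mice with the letter A, but 0 to 19 and 1 to 24 in the others, so low counts were not confined to that letter. Their part in the results was not tested.

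All 14 tested genes of the interval were lower in every CD mouse than in any WT mouse, and all 14 passed the test of the averaged contrast. Their log2 fold-change had a median of -0.96 and ran from -1.12 for Eln to -0.66 for Gtf2ird1, where 1 copy in place of 2 would give -1. Gtf2i, the first gene of the interval, lay at 51.2 to 68.2 CPM in CD and 95.2 to 129 CPM in WT mice. Just outside that edge, Ncf1 had a log2 fold-change of -0.40 (SE 0.16, adjusted p = 0.27 by edgeR) and Gtf2ird2 one of 0.00 (SE 0.07, adjusted p = 0.99 by edgeR). Beyond the other edge, Nsun5 stood at 0.06 (SE 0.07, adjusted p = 0.753 by edgeR). Between Baz1b and Nsun5 lie Fkbp6 and Trim50, which were higher in CD mice and are described further on.

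**Figure D1:**
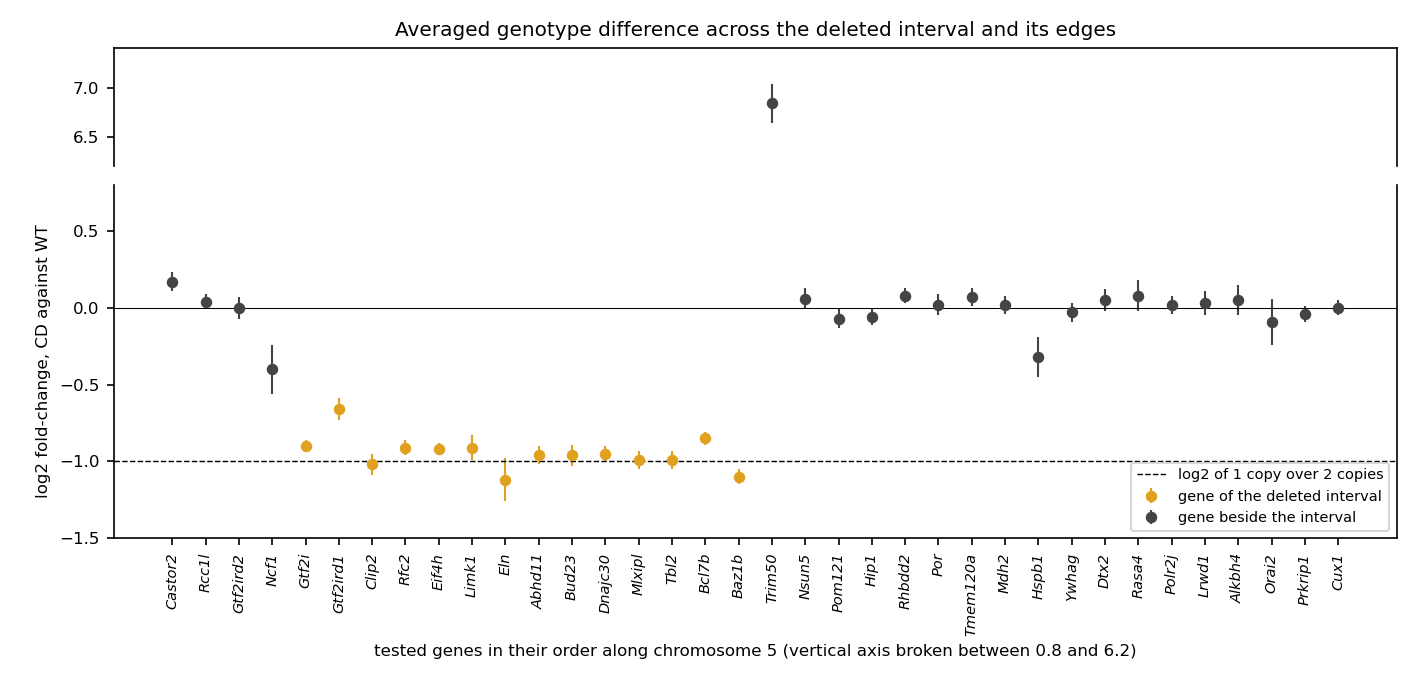
Averaged genotype difference of each tested gene in its order along chromosome 5, as log2 fold-change of CD against WT with its SE (bars), over 6 CD and 5 WT mice. The 14 genes of the deleted interval lie between -1.12 and -0.66, Trim50 lies at 6.84 above a break in the axis, and the other neighbours lie between -0.40 and 0.17.

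Outside the interval 109 genes were differentially expressed (DEGs) in the averaged contrast at an edgeR adjusted p under 0.05. Of these, 47 were higher and 62 lower in CD mice, and together they were 0.964% of the genes tested. The number of DEGs changed strongly when single mice were left out, as given in the last section. The changes were mostly small: the median absolute log2 fold-change was 0.43 over the 109 DEGs, 7 of them exceeded 1, and over all tested genes it was 0.06, equal to the median SE of 0.06. The normalised levels of CD and WT mice did not overlap for 53 of the 109 DEGs, 29 higher and 24 lower, against 1.22% of all tested genes (138 genes). That background share includes those DEGs, and the test itself favours genes without overlap. DESeq2 on the same genes called 428, all 109 among them, while an additive model of genotype and treatment called 22. In simulated counts with known changes, 12.9% of DESeq2 calls and 6.74% of edgeR calls were false at that threshold.

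The same genotype comparison within each treatment called far more genes. CD VEH against WT VEH gave 3426 DEGs (30.3%) and CD JZL184 against WT JZL184 gave 4317 DEGs (38.2%), and these comparisons share no mice. Of the 2170 genes called in both, 2120 changed in opposite directions (18.8% of the tested genes), 1125 of them higher and 995 lower in CD under vehicle. Only 50 changed in the same direction under both treatments (0.442%), 27 higher and 23 lower. The genotype difference itself differed between treatments for 5819 genes by the interaction test (51.5%). Leaving out 1 WT VEH mouse changed these counts, to 264 genes in opposite directions and 14 in the same direction without mouse C, and to 798 and 21 without mouse D. Of the 50 genes, 40 were DEGs of the averaged contrast and 10 were not, such as Tmem51, chosen after its values were seen, with 0.53 under vehicle, 0.52 under JZL184 and an edgeR adjusted p of 0.0533 on average.

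**Figure D2:**
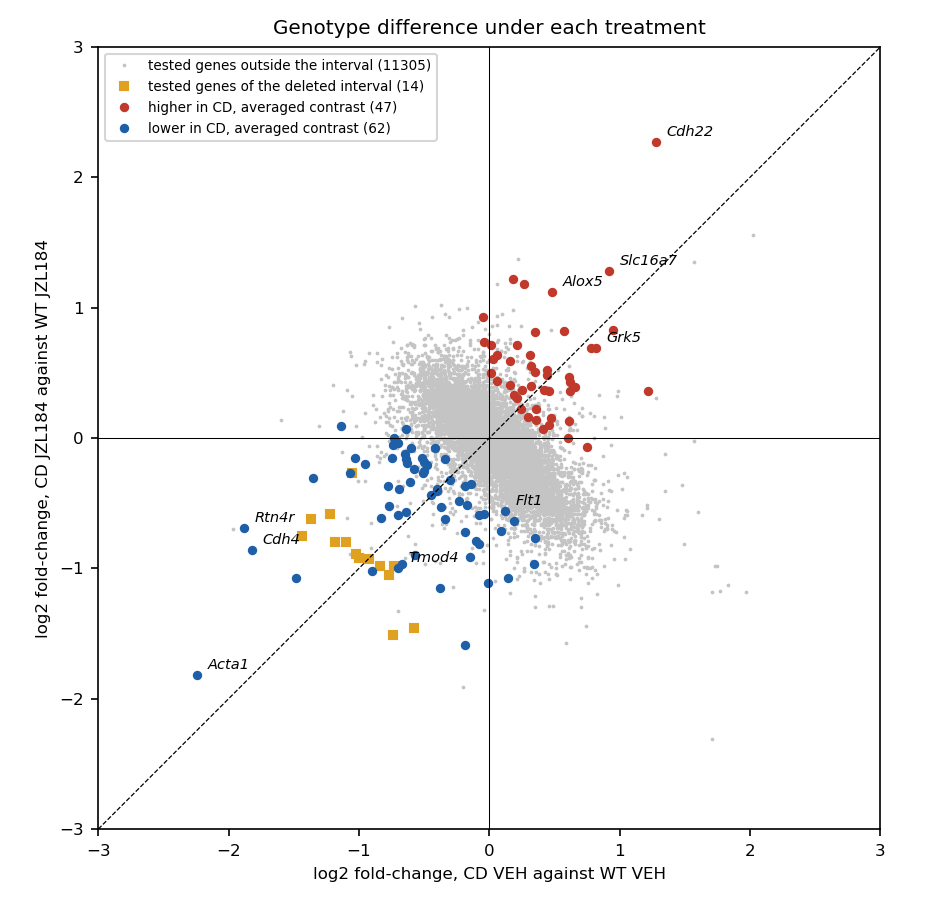
Log2 fold-change of CD against WT under vehicle (horizontal) and under JZL184 (vertical), 1 point per tested gene, with DEGs of the averaged contrast in red (47 higher) and blue (62 lower) and the 14 tested interval genes as squares. Most genes run from upper left to lower right. The DEGs were chosen by the average of both axes, which places them towards the dashed line of equal change, and 2 genes beyond 3 on either axis, Trim50 and Gdpd3, are not drawn.

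Among the 109 DEGs, 97 had the same sign under both treatments, as did 22.6% of all genes tested, but choosing genes by the average of both treatments favours equal signs. For 40 of them the difference was called in that direction in each treatment separately, for 30 under vehicle alone and for 37 under JZL184 alone. The remaining 2, Serpini1 and Adgrl4, were called higher in CD under vehicle and lower in CD under JZL184. The interaction passed the test for 54 of the 109 (49.5%), close to the 51.5% of all genes tested. It passed for 4 of the 40 called in the same direction in each treatment, a choice that by itself leaves few interactions. The genes described next are mainly the 12 highest and the 12 lowest of those 40 that also showed no overlap between genotypes and averaged at least 5 CPM. Of the 31 genes named by the full rule, 12 stayed called whichever single mouse was left out, and 19 lost the call without at least 1 mouse: 18 without WT VEH mouse C and 16 without WT VEH mouse D, where 1 WT VEH mouse remains and its spread is borrowed from the other groups.

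**Figure D3:**
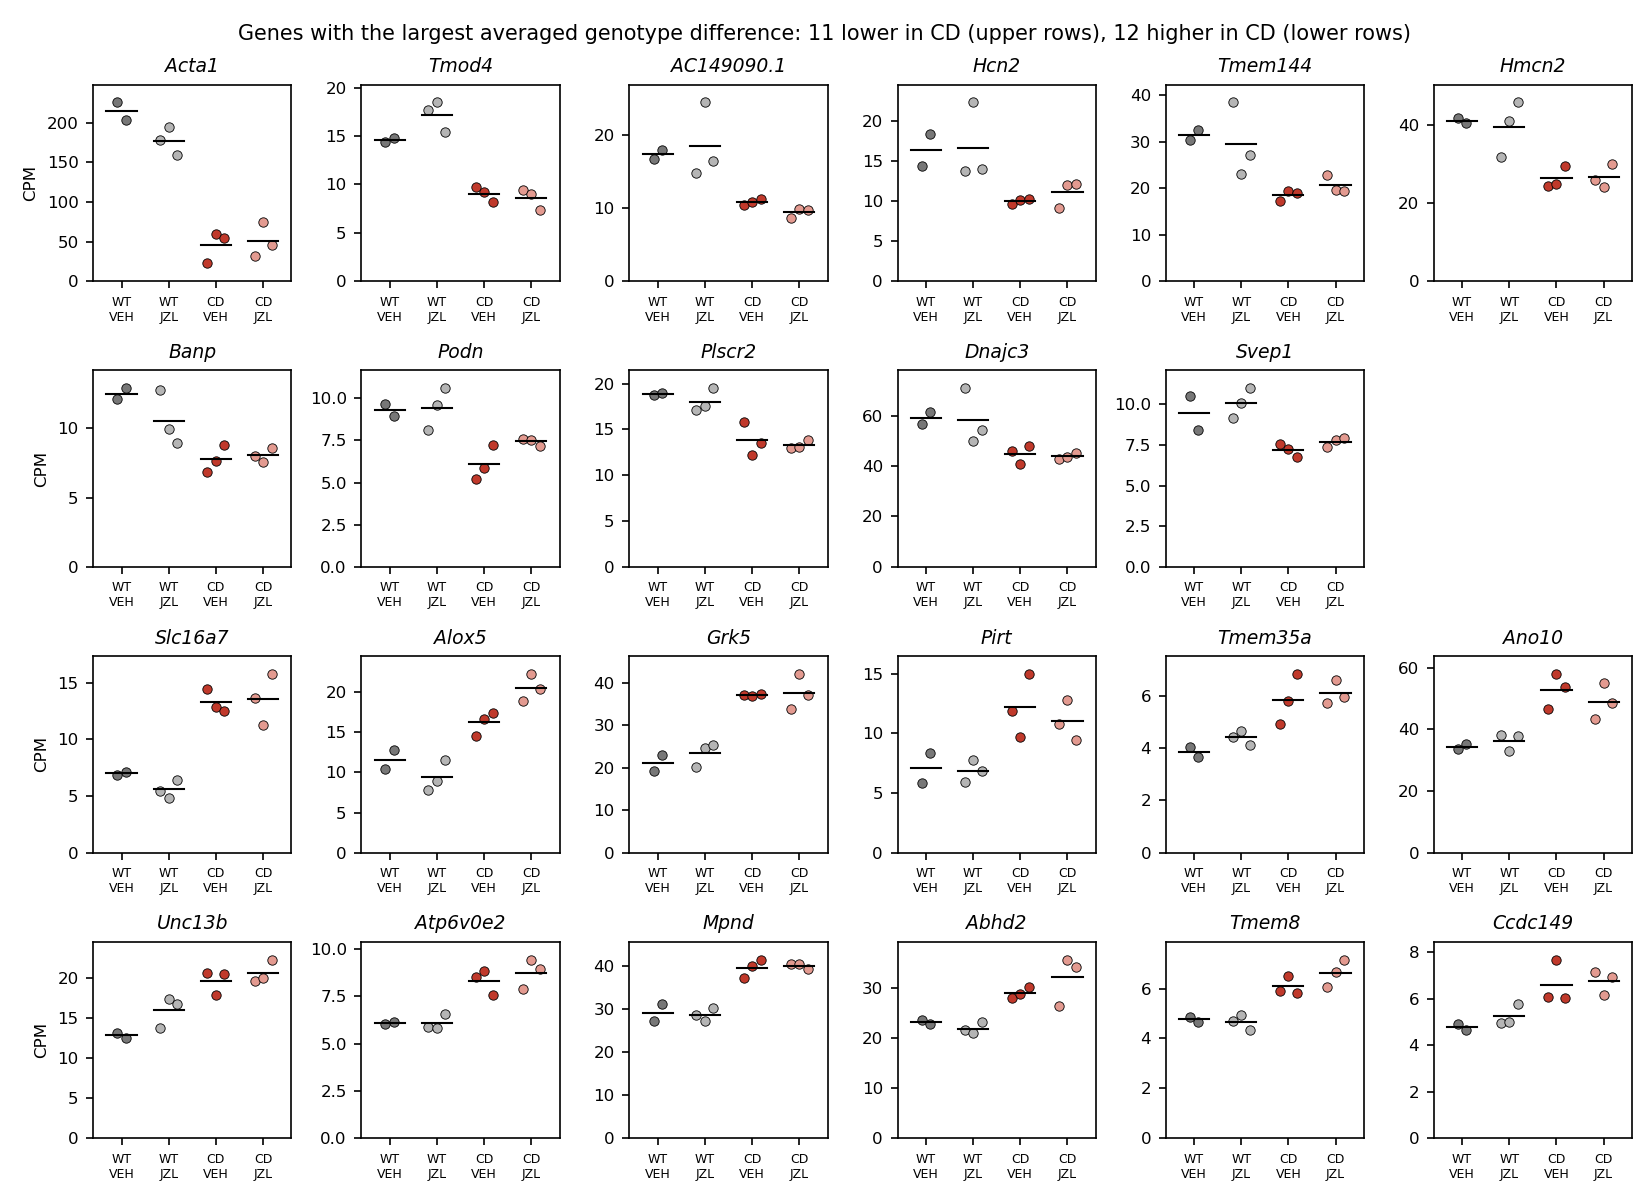
CPM of each mouse for 11 of the 12 genes with the largest fall (upper rows) and the 12 with the largest rise (lower rows) in CD, by group, with points for mice and bars for group means. In every panel the 6 CD mice lie on one side of the 5 WT mice, because only genes without overlap were chosen. Acta1 lies at 22.4 to 74.3 CPM in CD against 160 to 226 CPM in WT mice, and Ccdc149 at 6.05 to 7.69 CPM against 4.67 to 5.78 CPM.

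The largest fall outside the interval was that of Acta1 (ENSMUSG00000031972.5, chr8:123891769-123894751), which encodes skeletal α-actin, an actin isoform of the fetal heart. Acta1 stood at 226 and 204 CPM in WT VEH mice and at 178, 195 and 160 CPM in WT JZL184 mice. It stood at 22.4, 60.1 and 54.2 CPM in CD VEH mice and at 31.3, 74.3 and 45.6 CPM in CD JZL184 mice. Every CD mouse was thus far below the lowest WT mouse. The averaged fall was 4.08-fold, a log2 fold-change of -2.03 (SE 0.25, adjusted p = 0.00194 by edgeR), with -2.24 under vehicle and -1.82 under JZL184, and the interaction did not pass the test (adjusted p = 0.494 by edgeR). With any 1 mouse left out the fall ranged from -2.22 to -1.86 and stayed called. In bulk tissue, fewer cells of a type and less RNA per cell cannot be told apart.

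Acta1 shares most of its coding sequence with the cardiac actin gene Actc1, so part of its counts could be assigned to either. Actc1 had 5070 to 6604 CPM in CD and 5174 to 7288 CPM in WT mice, with a log2 fold-change of -0.10 (SE 0.07, adjusted p = 0.574 by edgeR). Of the 32 tested genes of the contractile list Acta1 alone passed, beside 0.964% of all genes tested, and the list's averaged median was -0.03, against -0.00 over all tested genes, with -0.35 under vehicle and 0.16 under JZL184.

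Tmod4, which encodes a tropomodulin that caps the pointed ends of actin filaments, was also lower in CD mice. It had 14.4 and 14.8 CPM in WT VEH mice, 17.7, 18.5 and 15.4 CPM in WT JZL184 mice, 9.74, 9.19 and 8.14 CPM in CD VEH mice and 9.43, 9.02 and 7.35 CPM in CD JZL184 mice. The groups were separated by genotype, and the averaged fall was 1.80-fold (log2 fold-change -0.85, SE 0.08, adjusted p = 1.03e-04 by edgeR), called whichever mouse was left out. Tmod4 and Acta1 are both better known from skeletal muscle. Of the 11 skeletal muscle markers only Ckm, which cardiomyocytes express too, passed the filter, at 1360 to 1587 CPM in CD and 1478 to 1799 CPM in WT mice (log2 fold-change -0.13, adjusted p = 0.424 by edgeR).

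Acta1 was 1 of 3 DEGs among the 13 tested genes of the hypertrophy list, beside 0.964% called among all genes tested. The list's median log2 fold-change was -0.26. The list was chosen with earlier results of these data known, so its share of DEGs is not independent of them. Ccn2, the matricellular growth factor also known as CTGF, fell from a WT median of 58.8 CPM (47.3 to 67.0) to a CD median of 40.9 CPM (32.1 to 50.8). The genotypes thus overlapped (log2 fold-change -0.45, SE 0.09, adjusted p = 0.038 by edgeR). Its log2 fold-change was -0.37 under vehicle (adjusted p = 0.0544 by edgeR) and -0.53 under JZL184 (adjusted p = 0.00644 by edgeR). Uchl1, a deubiquitinating enzyme, rose from a median of 4.55 CPM (3.13 to 6.16) to 7.18 CPM (6.78 to 8.01) without overlap. Its averaged log2 fold-change was 0.69 (SE 0.14, adjusted p = 0.0347 by edgeR). It was 0.57 under vehicle (adjusted p = 0.0553 by edgeR) and 0.82 under JZL184 (adjusted p = 0.00505 by edgeR). Both calls were lost on leaving out single mice, 7 of the 11 for Ccn2 with an edgeR adjusted p of up to 0.194, and 9 of the 11 for Uchl1 with one of up to 0.173.

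The better known stress genes of that list, picked here after their values were seen, did not pass the averaged test. Nppb, encoding B-type natriuretic peptide, had a median of 131 CPM in CD and 229 CPM in WT mice without overlap (65.5 to 162 against 184 to 486 CPM) and a log2 fold-change of -1.02 (SE 0.27, adjusted p = 0.0938 by edgeR). Nppa, encoding atrial natriuretic peptide, had a median of 99.1 against 169 CPM with overlap (log2 fold-change -0.78, SE 0.25, adjusted p = 0.175 by edgeR). Myh7, the slow myosin heavy chain, reversed between treatments: it was lower in CD under vehicle (-1.06, adjusted p = 0.00452 by edgeR) and higher in CD under JZL184 (0.63, adjusted p = 0.0158 by edgeR), which left an average of -0.21 (SE 0.13).

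A CArG box, the binding sequence of serum response factor, stands in the Acta1 promoter. Promoter windows of 250 bases before to 50 bases after the start of a gene were taken from RefSeq (GRCm38.p6), which held 108 windows for 85 of the 109 DEGs. The box occurs in 3 of those 108 windows (2.78%) and in 535 of all 32851 windows (1.63%). The Acta1 window, chr8:123894726-123895025 on the minus strand, is printed because this gene fell most, with the box in capitals and its first base 73 before the start.
Acta1: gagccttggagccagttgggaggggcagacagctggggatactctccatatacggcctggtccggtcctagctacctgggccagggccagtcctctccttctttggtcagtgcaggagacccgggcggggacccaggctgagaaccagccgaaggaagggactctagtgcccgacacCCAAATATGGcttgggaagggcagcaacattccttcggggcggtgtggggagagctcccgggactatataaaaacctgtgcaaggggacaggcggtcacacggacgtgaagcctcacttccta

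Gtf2i and Gtf2ird1 encode factors of the TFII-I family, which is known to bind GGATTA. Searched on both strands, these letters occur in 8 of the 108 windows of DEGs (7.41%), in 5.66% of the windows of all genes tested outside the interval and in 7.06% of all windows, so the share among DEGs was close to that among all genes. Of the 12 highest and 12 lowest genes, 17 had windows, and Alox5 and Tmem35a held the motif. Both rose in CD mice, and their windows are printed with the match in capitals, at 198 and 56 bases before the start. The Alox5 window is chr6:116461129-116461428 on the minus strand and that of Tmem35a is chrX:134294975-134295274 on the plus strand.
Alox5: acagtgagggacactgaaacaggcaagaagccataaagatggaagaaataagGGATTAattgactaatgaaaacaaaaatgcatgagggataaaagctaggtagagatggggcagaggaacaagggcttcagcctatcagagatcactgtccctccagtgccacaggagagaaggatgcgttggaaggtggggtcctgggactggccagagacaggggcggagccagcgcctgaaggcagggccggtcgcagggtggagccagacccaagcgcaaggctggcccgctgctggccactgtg
Tmem35a: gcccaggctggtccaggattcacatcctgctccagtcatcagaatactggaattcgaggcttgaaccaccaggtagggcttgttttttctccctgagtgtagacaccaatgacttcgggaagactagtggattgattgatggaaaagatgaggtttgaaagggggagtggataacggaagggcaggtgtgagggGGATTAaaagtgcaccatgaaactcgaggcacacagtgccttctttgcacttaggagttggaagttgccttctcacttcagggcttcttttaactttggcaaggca

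Among membrane and signalling genes, Hcn2 fell. It encodes a pacemaker channel subunit of the hyperpolarisation-activated current. Its level was 9.09 to 12.1 CPM (median 10.2) in CD and 13.7 to 22.3 CPM (median 14.3) in WT mice, with a log2 fold-change of -0.65 (SE 0.13, adjusted p = 0.038 by edgeR). The call rested on most of the mice, since it was lost in 8 of 11 fits that left 1 out (edgeR adjusted p up to 0.199). Hcn2 was the single DEG among 34 tested genes of cardiac excitation and calcium handling, beside 0.964% of all genes tested, and 12 others of the list were called in opposite directions under the treatments, as were 18.8% of all genes tested. Its paralog Hcn4 had an averaged log2 fold-change of 0.10 (adjusted p = 0.804 by edgeR).

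Genes of the extracellular matrix were among the other lower genes. Hmcn2, a hemicentin, stood at 24.0 to 30.1 CPM in CD and 31.7 to 45.8 CPM in WT mice (log2 fold-change -0.61, SE 0.09). Podn, which encodes the small leucine-rich proteoglycan podocan, stood at 5.18 to 7.61 against 8.09 to 10.6 CPM (-0.48, SE 0.09). Svep1, a large adhesion protein of the matrix, stood at 6.75 to 7.92 against 8.44 to 11 CPM (-0.39, SE 0.07). The edgeR adjusted p was 0.0101 for Hmcn2, 0.0312 for Podn and 0.024 for Svep1, and without WT VEH mouse C it reached 0.0688, 0.156 and 0.15. The calls were lost in 2, 8 and 4 of the 11 fits that left out 1 mouse. Among the 19 tested genes of the fibroblast and matrix list Ccn2, which also fell, was the single DEG of the averaged contrast, and the averaged median was 0.03. Within the treatments the list's median was 0.23 under vehicle, with 5 genes called higher in CD beside 15.0% of all genes tested, and -0.22 under JZL184, with 9 called lower in CD beside 20%.

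Other genes were lower as well. Plscr2, a phospholipid scramblase, stood at 12.2 to 15.8 CPM in CD and 17.1 to 19.5 CPM in WT mice, with nearly the same log2 fold-change under vehicle (-0.45) and JZL184 (-0.44). It was called whichever mouse was left out, at an edgeR adjusted p of up to 0.0463, but not with the column letter as a block (adjusted p = 0.115 by edgeR).

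Dnajc3, a co-chaperone of the endoplasmic reticulum that restrains the kinase PERK, stood at 40.8 to 47.9 CPM in CD and 50.1 to 71.0 CPM in WT mice (log2 fold-change -0.40, SE 0.08). Banp, a nuclear DNA-binding protein, stood at 6.86 to 8.76 against 8.96 to 12.9 CPM (-0.54, SE 0.09) and Tmem144, a transmembrane protein, at 17.3 to 22.9 against 23 to 38.5 CPM (-0.64, SE 0.11). The last 2 pairs of ranges nearly touch. Their edgeR adjusted p was 0.038, 0.0182 and 0.0182 in that order, and without WT VEH mouse D it reached 0.18, 0.103 and 0.101, with the call lost in 7, 3 and 5 of the 11 fits that left out 1 mouse. A gene named AC149090.1 on the unplaced scaffold JH584304.1 stood at 8.70 to 11.3 against 14.8 to 24.5 CPM (-0.82, SE 0.11, adjusted p = 0.00371 by edgeR) and stayed called without any 1 mouse.

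Slc16a7, Alox5 and Grk5 rose most among the genes away from the interval that averaged at least 5 CPM and were called in each treatment. Slc16a7 encodes the monocarboxylate transporter MCT2, which carries lactate, pyruvate and ketone bodies. It had 6.85 and 7.16 CPM in WT VEH mice, 5.48, 4.84 and 6.42 CPM in WT JZL184 mice, 14.5, 12.9 and 12.5 CPM in CD VEH mice and 13.7, 11.3 and 15.8 CPM in CD JZL184 mice. The lowest CD mouse was well above the highest WT mouse, and the averaged rise was 2.15-fold (log2 fold-change 1.10, SE 0.10, adjusted p = 8.92e-05 by edgeR). It ranged from 1.04 to 1.16 with single mice left out.

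Grk5 encodes a kinase that phosphorylates G protein-coupled receptors, β-adrenergic receptors among them. It had 19.3 and 22.9 CPM in WT VEH mice, 20.1, 24.6 and 25.4 CPM in WT JZL184 mice, 37.2, 36.9 and 37.4 CPM in CD VEH mice and 33.8, 42.1 and 37.1 CPM in CD JZL184 mice. The genotypes were far apart within each treatment. The rise was 1.69-fold (log2 fold-change 0.75, SE 0.08, adjusted p = 3.38e-04 by edgeR) and similar under vehicle (0.82) and JZL184 (0.69). Grk2, the other main receptor kinase of the heart, looked up after these values were seen, had a log2 fold-change of 0.08 (SE 0.04, adjusted p = 0.449 by edgeR). Grk3, of the same family and also looked up later, fell, with 7.9 to 10.9 CPM in CD and 11.2 to 12.9 CPM in WT mice (log2 fold-change -0.41, SE 0.06, adjusted p = 0.00725 by edgeR), more under vehicle (-0.63) than under JZL184 (-0.19).

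Alox5 encodes 5-lipoxygenase, which turns arachidonic acid into leukotriene precursors. It had 10.4 and 12.8 CPM in WT VEH mice, 7.78, 8.91 and 11.6 CPM in WT JZL184 mice, 14.6, 16.7 and 17.4 CPM in CD VEH mice and 18.9, 22.3 and 20.4 CPM in CD JZL184 mice. CD mice were higher in both treatments, more so under JZL184 (log2 fold-change 1.12, SE 0.13) than under vehicle (0.48, SE 0.15), and that difference passed the interaction test (adjusted p = 0.0189 by edgeR). The averaged rise was 1.74-fold (0.80, SE 0.10, adjusted p = 0.00225 by edgeR), called whichever mouse was left out. Alox5 is best known from leukocytes. Of the 18 tested macrophage markers none was called in the averaged contrast, where their median was -0.13. Their median was 0.51 under vehicle, with 9 called higher in CD (15.0% of all genes tested were), and -0.91 under JZL184, with 16 called lower in CD (20% of all genes tested). The interaction passed for 17, against 51.5% of all genes tested. Their summed level was 314 to 617 CPM in CD and 361 to 791 CPM in WT mice.

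The other 9 of the 12 highest genes rose by 0.41 to 0.73 on the log2 scale. Pirt, a membrane protein that regulates the TRPV1 channel, had 9.47 to 15.0 CPM in CD and 5.81 to 8.38 CPM in WT mice (log2 fold-change 0.73, SE 0.14, adjusted p = 0.0266 by edgeR). Tmem35a, a chaperone of nicotinic receptors, had 4.92 to 6.85 against 3.66 to 4.67 CPM (0.54, SE 0.09, adjusted p = 0.0154 by edgeR). Unc13b, a protein that primes vesicles for release, had 17.9 to 22.3 against 12.5 to 17.4 CPM (0.49, SE 0.07, adjusted p = 0.0059 by edgeR). These genes are better known from neurons than from the ventricle. Pirt lost its call without any of 5 mice (edgeR adjusted p up to 0.15), Tmem35a without either WT VEH mouse (up to 0.103) and Unc13b without WT VEH mouse D (0.0542).

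Ano10, a scramblase of the endoplasmic reticulum, had 43.5 to 58.0 CPM in CD and 33.1 to 38.2 CPM in WT mice (log2 fold-change 0.52, SE 0.07) and was lost without WT VEH mouse C (adjusted p = 0.0559 by edgeR). Atp6v0e2, a subunit of the vacuolar proton pump, had 7.56 to 9.45 against 5.85 to 6.56 CPM (0.48, SE 0.07, adjusted p = 0.0055 by edgeR). Mpnd had 37.3 to 41.6 against 27.2 to 31.2 CPM (0.46, SE 0.05, adjusted p = 7.18e-04 by edgeR). The last 2 stayed called without any 1 mouse, while with the column letter as a block Atp6v0e2 lost its call (adjusted p = 0.0529 by edgeR). Mpnd overlaps Sh3gl1 on the opposite strand, and since the strand setting of the libraries is not given in the sources used here, reads of the pair may be mixed.

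Abhd2 encodes a serine hydrolase that can cleave 2-arachidonoylglycerol, the substrate of the enzyme that JZL184 blocks. It had 26.4 to 35.7 CPM in CD and 21 to 23.7 CPM in WT mice (log2 fold-change 0.44, SE 0.07, adjusted p = 0.0154 by edgeR), with 0.32 under vehicle and 0.55 under JZL184, and was lost without either WT VEH mouse (edgeR adjusted p up to 0.101). It was not on the endocannabinoid list, of which 7 genes were tested and none was called. Mgll itself reversed, with a log2 fold-change of 0.44 under vehicle, -0.61 under JZL184 and -0.08 on average (adjusted p = 0.765 by edgeR). Tmem8, which trims GPI-anchored proteins, and Ccdc149, a coiled-coil protein, completed the 12, with log2 fold-changes of 0.43 (adjusted p = 0.0108 by edgeR) and 0.41 (adjusted p = 0.038 by edgeR). Both were lost without either WT VEH mouse, and Ccdc149 in 8 of 11 such fits (edgeR adjusted p up to 0.184).

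The largest rise of all was next to the deletion. Trim50 (chr5:135353295-135368005), which encodes an E3 ubiquitin ligase, lies 3.25 kb beyond Fkbp6, the last gene of the interval. It had 8 and 8 counts in WT VEH mice and 1, 0 and 5 counts in WT JZL184 mice, against 563, 504 and 588 counts in CD VEH mice and 483, 566 and 532 counts in CD JZL184 mice. It was all but silent in WT mice and on in every CD mouse. Over all mice there were 3236 counts in CD and 22 in WT, a ratio of 113 per count sequenced with an exact 95% interval of 74.6 to 181, which covers counting error only. The fitted log2 fold-change of 6.84 (SE 0.20, adjusted p = 4.03e-09 by edgeR) depends on the prior count, as does the difference between 5.93 under vehicle and 7.76 under JZL184.

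Fkbp6 did not pass the filter on low counts, yet its counts were also higher in every CD mouse, unlike those of the 14 tested genes of the interval. It had 69, 64 and 83 counts in CD VEH and 94, 73 and 83 counts in CD JZL184 mice, against 4 and 1 counts in WT VEH and 1, 5 and 2 counts in WT JZL184 mice. The ratio was 27.6 (exact 95% interval 16 to 52.2). Which exons these counts came from cannot be read from a table of counts per gene.

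Asl, argininosuccinate lyase of the urea cycle and of arginine supply, was the other DEG within 5 Mb of the interval. It had 4.38 to 5.44 CPM in CD and 3.23 to 4.02 CPM in WT mice (log2 fold-change 0.52, SE 0.07, adjusted p = 0.0055 by edgeR). It stayed called without any 1 mouse but not with the column letter as a block (adjusted p = 0.0816 by edgeR). Within 1 Mb, 1 of 22 tested genes was called (4.55%), and from 1 to 5 Mb 1 of 75 (1.33%). From 5 to 20 Mb the count was 2 of 210 (0.952%), over the rest of chromosome 5 it was 5 of 390 (1.28%), and on other chromosomes it was 100 of 10537 (0.949%). Apart from Trim50 the DEGs were thus spread over the chromosomes, and the share on chromosome 5 (9 of 697, 1.29%) was near that of the genome.

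Lower-expressed DEGs held some of the larger changes and are named here after their values were seen. Cdh22, a cadherin, rose from 0.599 to 1.56 CPM in WT to 2.49 to 4.71 CPM in CD mice (log2 fold-change 1.78, SE 0.23, adjusted p = 0.00291 by edgeR). Cdh4, another cadherin, fell from 2.44 to 4.20 CPM to 0.681 to 2.02 CPM (-1.34, SE 0.23, adjusted p = 0.0182 by edgeR). Rtn4r, the Nogo receptor, and Fam81a each had a log2 fold-change of -1.28 (edgeR adjusted p = 0.00221 and 4.41e-04). For all 4 the genotypes did not overlap, and together with Acta1, Slc16a7 and Trim50 they are the 7 DEGs with an absolute log2 fold-change over 1.

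The pathway and cell type lists held 8 DEGs of the averaged contrast among 455 tested genes (1.76%, against 0.964% of all genes tested). They were chosen with earlier results of these data known, so this share is not independent of them. Of the 30 lists, 26 had at least 5 tested genes, and in 18 of these no gene was called. In 22 of the 26 the median genotype difference had opposite signs under vehicle and under JZL184, and in 24 of the 26 the averaged median lay within 0.2 of 0. The 25 endothelial genes had a median log2 fold-change of 0.47 under vehicle and -0.60 under JZL184, with 19 of them called in opposite directions (18.8% of all genes tested were), and an averaged median of -0.03. The cardiac transcription factor list, whose 23 genes include the splicing regulators Rbm20, Rbm24, Mbnl1 and Celf1, ran the other way. Its median was -0.31 under vehicle, 0.42 under JZL184 and 0.04 on average. None of its genes was called in the averaged contrast. Within treatments 11 were called lower in CD under vehicle and 19 higher under JZL184, with 11 called in opposite directions.

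**Figure D4:**
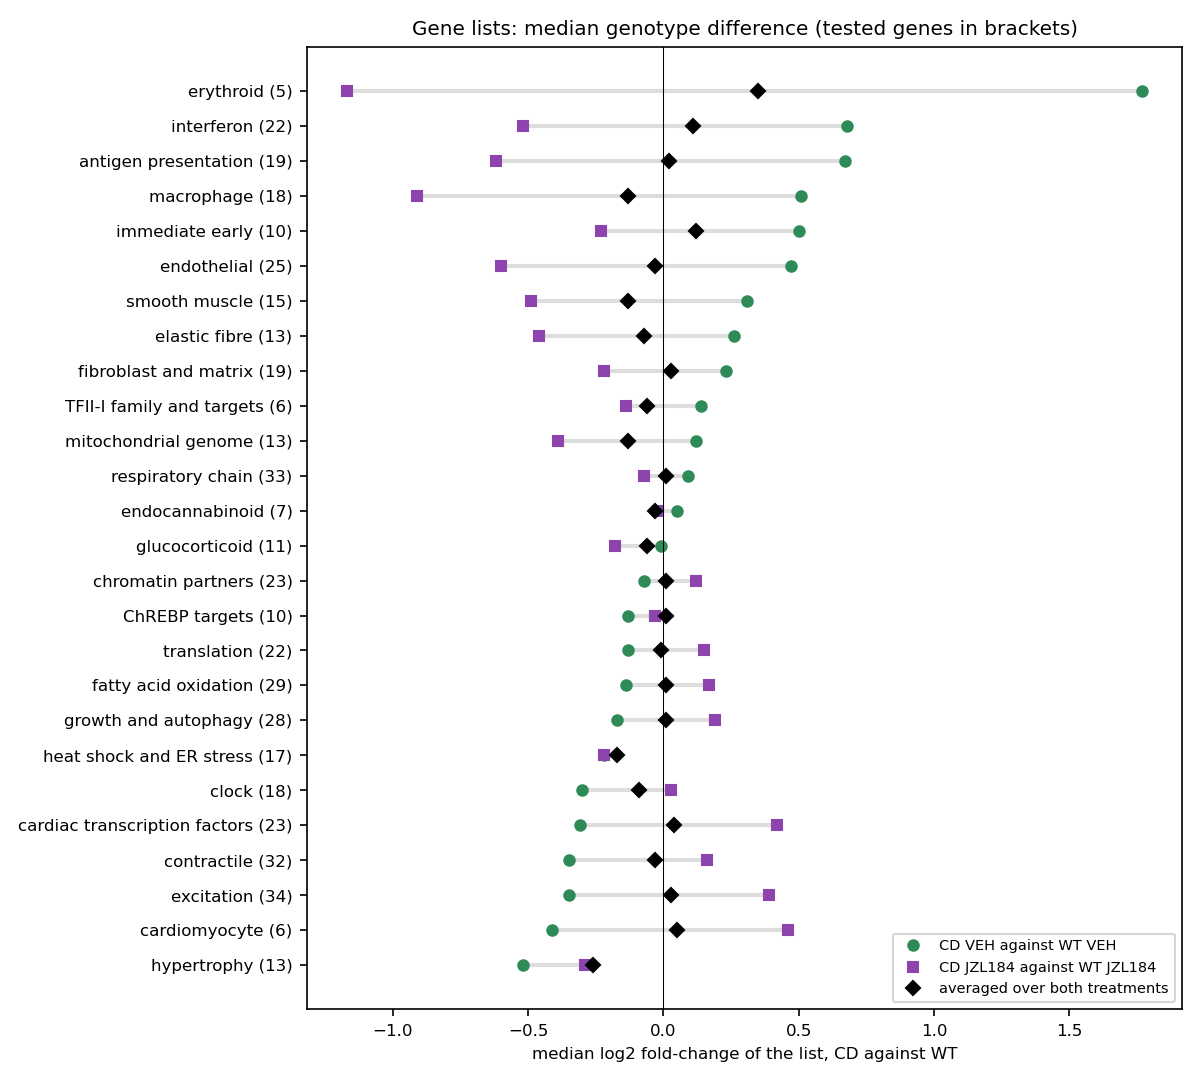
Median log2 fold-change of CD against WT for the 26 lists with at least 5 tested genes, under vehicle (circles), under JZL184 (squares) and averaged (diamonds). The circle and the square lie on opposite sides of 0 for 22 lists, with the widest gap for erythroid genes (1.77 and -1.17). No erythroid gene was called under either treatment, and their summed level ran from 2032 to 18841 CPM among CD VEH mice. The hypertrophy list has the lowest averaged median, -0.26.

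The immune lists had the same pattern. Antigen presentation genes (19 tested) had a median of 0.67 under vehicle, -0.62 under JZL184 and 0.02 on average, and interferon-induced genes (22 tested) had 0.68, -0.52 and 0.11, with no gene called in the averaged contrast in either list. The erythroid list had the highest averaged median, 0.35, with none of 5 tested genes called, beside the wide spread of its summed level given above. The averaged median was 0.01 for 29 genes of fatty acid oxidation and 0.01 for 33 nuclear genes of the respiratory chain, and no gene of either was called. For the 13 genes of the mitochondrial genome it was -0.13 (-0.26 to -0.08), also with no call. Under vehicle their median was 0.12, with 2 called higher in CD beside 15.0% of all genes tested. Under JZL184 it was -0.39, with 12 called lower in CD beside 20%. The 6 tested targets and relatives of TFII-I and the 10 targets of ChREBP (the product of Mlxipl) gave no call in the averaged contrast. Neither did 23 partners of the chromatin factors of the interval. With 0.964% of all genes tested called, lists of this size would rarely hold a DEG. The interaction passed for 4, 8 and 12 genes of these lists in that order, beside 51.5% of all genes tested.

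The few list genes that were called were often averages of unequal parts. Flt1, the VEGF receptor 1, was the single DEG among endothelial genes, with 94.5 to 121 CPM in CD and 108 to 147 CPM in WT mice and a log2 fold-change of -0.22 (SE 0.04, adjusted p = 0.0318 by edgeR). It was 0.12 under vehicle (adjusted p = 0.175 by edgeR) and -0.56 under JZL184 (adjusted p = 1.86e-04 by edgeR), so the averaged fall came from the JZL184 mice. Fbln2, fibulin 2 of elastic fibres, had -0.08 under vehicle, -0.59 under JZL184 and -0.33 on average (SE 0.07, adjusted p = 0.038 by edgeR), and it was the single DEG among 13 tested elastic fibre genes outside the interval, of which 8 were called lower in CD under JZL184 (20% of all genes tested were) and none was called under vehicle (30.3% in either direction). Flt1 lost its call on leaving out any of 7 mice and Fbln2 any of 8 (edgeR adjusted p up to 0.153 and 0.18). Both calls were also lost with a gene length offset (edgeR adjusted p = 0.0584 and 0.0509), in a genotype-only model (0.516 and 0.237) and in an additive model of genotype and treatment (0.649 and 0.338).

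Ddit3, the stress transcription factor CHOP, was the single DEG of 17 heat shock and endoplasmic reticulum stress genes, beside 0.964% of all genes tested. It had 7.99 to 10.1 CPM in CD and 10.1 to 13.1 CPM in WT mice (log2 fold-change -0.34, SE 0.07, adjusted p = 0.0363 by edgeR), lost in 8 of 11 fits without 1 mouse (up to 0.19). The log2 fold-change of Ddit3 was -0.17 under vehicle (adjusted p = 0.206 by edgeR) and -0.51 under JZL184 (adjusted p = 0.00205 by edgeR). Ddit3 overlaps Mars on the opposite strand. The median of that list was -0.17, and its sign was the same under vehicle (-0.22) and JZL184 (-0.22). The inducible chaperones Hspa1b and Hspa1a had the highest log2 fold-changes of the list, 1.79 and 1.46, followed by Dnajb1 with 0.59, and none of the 3 was called in the averaged contrast. The CPM of Hspa1b spread from 5.52 to 66.2 among CD mice and from 4.01 to 17.7 among WT mice (SE 0.59, adjusted p = 0.182 by edgeR).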

How the data were processed

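RNA-seq of hearts (source labelled ventricle) of 11 male mice was analysed. Per the labels and the study's methods, the authors quantified reads with Salmon 0.7.2 against Ensembl release 85 (mm10) and deposited gene-level estimated counts made with tximport 1.2.0 (expected counts, not whole numbers). The counts were rounded and fitted with edgeR 4.0.16 (limma 3.58.1, R 4.3.3): TMM scaling, a minimum average log2 CPM of 1 (11319 genes), a quasi-likelihood model of 4 groups, and Benjamini-Hochberg adjustment over all genes tested, with a threshold of 0.05. DESeq2, the tool of the study, was an alternative, run here in version 1.42.0, which differs from the study's version. Other alternatives were other scalings, filters, models and thresholds, leaving out each mouse, and a block on the column letter. The fit was checked on simulated counts with known changes. Of the calls, 6.74% were false with edgeR and 12.9% with DESeq2. With edgeR, log2 changes of 0.3, 0.5 and 1 were recovered for 59.7%, 89.6% and 100% of the changed genes.

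Columns of the table name the group but not the numbered sample, so they were mapped to groups only. The labels do not say how the replicates of a group were kept or prepared, and p-values measure the spread between these samples. Positions are from GENCODE M21 (GRCm38), which matched 22315 of 22608 genes. The members and gene lists were chosen with earlier results of these data known. Genes were named by this rule: DEGs outside the interval, called in the same direction within each treatment, without overlap of CPM between genotypes and with 5 CPM or more on average, the 12 highest and 12 lowest; all DEGs within 5 Mb of the interval; and up to 3 DEGs per list with the largest change. Of the genes so named, 1 is not reported here. Depth was 69660232 to 92251443 counts.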

Additional observations from a re-analysis of the deposited data

Results flagged for a closer look

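For 4 of the named genes the genotype difference differed between the treatments, by the interaction term of the edgeR fit, which sets the difference under JZL184 against that under vehicle. The difference of log2 fold-changes was 0.64 for Alox5 (adjusted p = 0.0189 by edgeR), whose rise was larger under JZL184. It was -0.68 for Flt1 (adjusted p = 2.00e-04 by edgeR) and -0.51 for Fbln2 (adjusted p = 0.00849 by edgeR), both of which were called under JZL184 alone. It was 1.82 for Trim50 (adjusted p = 0.0273 by edgeR), where the WT counts of 0 to 8 make the value depend on the prior count. The interaction passed for 51.5% of all genes tested. Single mice were not examined for outlying values, because groups held 2 or 3 mice.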

How the results depend on the processing

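The columns carry letters and not the replicate numbers of the labels, so no block on those numbers was fitted. Interactions are counted in this section among the DEGs of the averaged contrast only (54 in the main fit), not over all genes tested. A replicate block on the letters, chosen after seeing the data, left 3 residual degrees of freedom. It gave 54 DEGs (22 of the 109 among them), 19 without overlap, 60 genes in the same direction, 397 in opposite directions and 21 interactions. Of the 31 named genes, 14 stayed called with it, among them Acta1, Tmod4, Slc16a7, Grk5, Alox5 and Trim50, and 17 did not (Hcn2, Hmcn2, Podn, Ccn2, Plscr2, Svep1, Ddit3, Fbln2, Flt1, Ccdc149, Tmem8, Abhd2, Atp6v0e2, Unc13b, Asl, Tmem35a and Pirt). The letters were not taken to pair mice. Deviations from the group means correlated at -0.25 to 0.31 in the 8 same-letter pairs across groups, over 0.1 in 1 of them. Of the 10 mice whose letter recurs, 2 correlated best with a mouse of their own letter. In groups of 2 or 3 mice these deviations must balance out, so the check cannot decide whether a letter has an effect. Upk3b had 0 counts in the 3 mice with the letter A and 8 to 95 in the other 8.

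The 109 DEGs, the 53 without overlap and the 54 with an interaction became 428, 101 and 230 with DESeq2 (which called all 109), 213, 98 and 89 with no filter on low counts, and 173 and 84 (DEGs, no overlap) with at least 10 counts in every mouse. An additive model gave 22 DEGs, all without overlap, and a genotype-only model 25. A GC offset moved the interaction count to 82, and DEGs numbered 107 with RLE size factors, 131 with a gene length offset and 130 without mitochondrial genes. At an adjusted p under 0.01 the counts were 25 DEGs, 22 without overlap, 15 in the same direction, 636 in opposite directions and 4 interactions. With a log2 fold-change threshold of 1 in either direction they were 7, 7, 4, 0 and 2.

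Leaving out each mouse gave 26 to 245 DEGs, 19 to 115 without overlap, 14 to 69 in the same direction, 264 to 2700 in opposite directions and 7 to 131 interactions. DEGs were fewest without WT VEH mouse C or D (26 each) and most without WT JZL184 mouse B (245). They were 72, 44 and 55 without CD JZL184 mouse A, C or E and 57 without CD VEH mouse A. Genes in opposite directions numbered 264 and 798 without WT VEH mouse C or D, and 1260 and 1250 without CD VEH mouse A or E. The causes were not tested. For the 31 named genes, 522 of 711 values kept their direction and side of the threshold, 189 lost the call and 0 reversed. The additive model lost 15 of the 31, the genotype-only model 12 and the gene length offset 3.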
